A study of Mus musculus with 6 samples.

Results

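Lambda light chain B cells are B cells whose antigen receptor uses a lambda rather than a kappa light chain. They were taken from the spleen of 1 wild-type mouse (WT, strain C57BL/6JRj) and 1 mouse heterozygous for 564Igi, whose full allele names are Igktm1(Igk564)Tik and Ightm1(Igh564)Tik on a B6.129S4(Cg) background. In 564Igi an already rearranged heavy chain and kappa chain of an autoreactive antibody sit in the Igh and Igk loci, and the other allele of a heterozygous locus can still rearrange. Spleen cells of both mice had been depleted of Ter-119-positive erythroid cells and loaded on a 10x droplet system with 5′ V(D)J kits. Age is not stated in the labels, and the gene expression libraries of these mice were not analysed here.

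Barcodes were taken as B cells if the B cell receptor table of their mouse called them cells and the T cell receptor table did not. Its primary light chain was the productive, high-confidence kappa (IGK) or lambda (IGL) contig with most unique molecular identifiers (UMIs, which count captured mRNA molecules), with at least 2. By this rule 510 of 6395 WT B cells with a light chain were lambda cells, or 7.97%, and so were 88 of 3649 in 564Igi, or 2.41%. The 564Igi share was 1.45% where cells had to hold exactly 1 productive light chain and 4.32% over distinct clonotypes. Distinct clonotypes count cells with the same heavy and light chain once. In 564Igi, 1658 cells with a kappa light chain held both the commonest heavy and the commonest light chain of the mouse. Across both mice the lambda cells numbered 598 of 10044. The other 5885 WT and 3561 564Igi cells are called kappa cells here.

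The label rests on the receptor tables alone. Productive T cell receptor contigs remained in 0 WT and 2 564Igi lambda cells, after the rule had removed the barcodes called as T cells. In barcodes called only as T cells, a lambda contig was seen in 1 of 3263 in WT, or 0.0306%, and in 0 of 4573 in 564Igi, where 3 counts would be 0.0656%. Kappa contigs were found in 1.35% and 0.831% of the same barcodes. The choice between the classes turned on UMIs in 172 WT cells that held a productive chain of both, of which 109 were lambda cells and 63 kappa cells. The 564Igi mouse had 48 such cells, 38 of them lambda. Just inside the rule, the lowest lambda to kappa UMI ratio of a lambda cell was 1 in WT and 1.06 in 564Igi. Just outside it, the highest ratio of a kappa cell was 0.982 and 0.974.

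The B cell tables held 927382 UMIs in WT and 747499 in 564Igi. Each genotype was 1 mouse, so no difference was tested against the spread between animals and no p-value is given. Intervals in parentheses are exact 95% binomial intervals, Newcombe intervals for differences in percentage points, or order-statistic intervals for medians, and they cover counting error only.

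As background, a developing mouse B cell first assembles a heavy chain and then joins a V to a J segment in the kappa locus. If the kappa joint is out of frame, or if the receptor binds self, rearrangement can go on to further kappa joints with J segments farther downstream, and then to the lambda locus. This second course is called receptor editing. The mouse lambda locus is small, with few V, J and constant segments.

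The lambda CDR3 sequences, the joints of V and J, are shown first because so few of them account for the cells. Capitals mark the positions that vary among the printed sequences of 33 bases, counted from 1 at the 5′ end.
IGLV1-IGLJ1, 150 WT and 22 564Igi cells: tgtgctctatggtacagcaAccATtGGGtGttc
IGLV1-IGLJ1, 53 WT and 7 564Igi cells: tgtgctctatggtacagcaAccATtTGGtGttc
IGLV1-IGLJ1, 30 WT and 11 564Igi cells: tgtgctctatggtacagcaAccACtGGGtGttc
IGLV1-IGLJ1, 13 WT and 3 564Igi cells: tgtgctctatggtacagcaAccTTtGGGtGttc
IGLV1-IGLJ3, 24 WT and 11 564Igi cells: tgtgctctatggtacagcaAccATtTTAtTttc
IGLV2-IGLJ2, 107 WT and 12 564Igi cells: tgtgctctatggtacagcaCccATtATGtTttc
IGLV2-IGLJ1, 5 WT and 0 564Igi cells: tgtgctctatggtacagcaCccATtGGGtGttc
IGLV3-IGLJ2, 53 WT and 9 564Igi cells, with no capitals because its 45 bases do not align with the rest: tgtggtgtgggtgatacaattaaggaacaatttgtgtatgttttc

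The 510 WT lambda cells held 37 distinct lambda CDR3 nucleotide sequences and the 88 564Igi cells held 15. The 3 commonest covered 63.1% of WT lambda cells, whereas the 3 commonest kappa CDR3 sequences, among 844, covered 6.42% of WT kappa cells. The mice shared 13 lambda sequences, and these were carried by 92.7% of WT and 97.7% of 564Igi lambda cells. Cells with the same lambda CDR3 therefore cannot be called relatives from the light chain alone. Relative to the commonest sequence, the IGLV2-IGLJ1 sequence differs by A20C, a position that went with the V gene in the printed sequences. The second to the fourth sequence listed differ from the first by G26T, T24C and A23T.

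IGLV1 was the V gene of 316 of 510 WT lambda cells, or 62.0% (57.6 to 66.2), and of 64 of 88 in 564Igi, or 72.7% (62.2 to 81.7). By V-J pair, WT cells were IGLV1-IGLJ1 in 269 (52.7%), IGLV2-IGLJ2 in 122 (23.9%), IGLV3-IGLJ2 in 61 (11.96%) and IGLV1-IGLJ3 in 35 (6.86%). The 564Igi cells were IGLV1-IGLJ1 in 48 (54.5%), IGLV1-IGLJ3 in 16 (18.2%), IGLV2-IGLJ2 in 15 (17.0%) and IGLV3-IGLJ2 in 9 (10.2%). The IGLV1-IGLJ3 pair was thus the one whose order differed, below IGLV2-IGLJ2 and IGLV3-IGLJ2 in WT and above both in 564Igi, and its intervals, 4.83 to 9.42 and 10.8 to 27.8, did not overlap. Of the 16 cells in 564Igi, 12 carried the commonest heavy chain of that mouse. With other heavy chains IGLJ3 was at 4.69% (0.977 to 13.1), against 7.25% (5.16 to 9.86) of WT lambda cells.

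**Figure D1:**
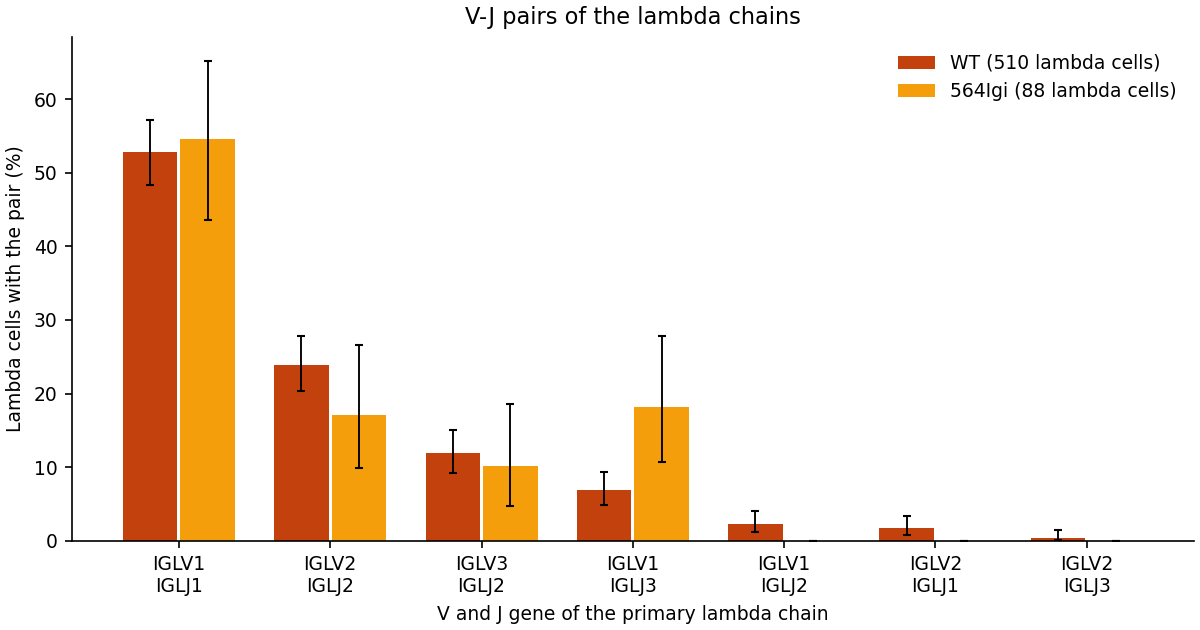
Share of lambda cells (percent, bars with exact 95% intervals) by V and J gene of the primary lambda chain, in 1 WT mouse (510 cells) and 1 564Igi mouse (88 cells). IGLV1-IGLJ1 leads in both mice at 52.7% and 54.5%, and IGLV1-IGLJ3 is at 6.86% in WT and 18.2% in 564Igi. Of the 16 IGLV1-IGLJ3 cells in 564Igi, 12 carry the commonest heavy chain of that mouse.

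The common pairs join IGLV1 to J segments on one side of Iglv1 on chromosome 16, and IGLV2 and IGLV3 to the J segment on the other side. In RefSeq's GRCm38.p6 (the assembly behind mm10), Iglj1 lies at 19063225 to 19063262, Iglj3 at 19067041 to 19067078 and Iglv1 at 19085017 to 19085460. Farther along lie Iglc2 at 19198536 to 19198852, Iglj2 at 19200198 to 19200235, Iglv3 at 19241208 to 19241679 and Iglv2 at 19260403 to 19260844. Every chain with IGLJ1 was given the constant gene IGLC1. All chains with IGLJ2 or IGLJ3 were named IGLC3 and none IGLC2, although Iglj2 neighbours Iglc2. IGLC2 and IGLC3 are near-identical copies, so this naming is uncertain and no result rests on it.

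A further 12 WT cells were named IGLV1-IGLJ2, which would join a V segment to a J segment on its far side. All 12 carried the commonest IGLV2-IGLJ2 CDR3, including the IGLV2 base of A20C, so their V gene name is also uncertain. Counting them as IGLV2 lowers the WT share of IGLV1 to 59.6%. In the other direction, 9 WT cells joined IGLV2 to IGLJ1 and 2 joined it to IGLJ3, and no 564Igi cell did.

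Heavy chains came next. One was recovered in 423 of 510 WT lambda cells, or 82.9% (79.4 to 86.1), against 73.9% of kappa cells, a difference of 9.02 points (5.30 to 12.4). When every cell was thinned to 10 UMIs, the shares were 72.8% of the 486 lambda and 67.4% of the 5765 kappa cells deep enough to keep. In 564Igi the shares were 92.0% of lambda and 91.0% of kappa cells, and 83.9% and 93.2% after thinning, with lambda cells then lower. Of the kappa cells whose light chain was not the commonest one of the mouse, a heavy chain was found in 86.4% of 273 before and 78.2% of 252 after thinning.

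In WT the heavy V genes of lambda cells differed from those of kappa cells most in 2 families. IGHV1, the large family of the locus, was used by 41.6% of lambda and 60.2% of kappa cells, a difference of -18.6 points (-23.6 to -13.5). IGHV10, a family of few genes, was used by 36 lambda cells, 8.51% (6.03 to 11.6), and by 2.05% of kappa cells (1.65 to 2.51), a ratio of 4.16-fold. IGHV8 was at 9.22% against 5.29% and IGHV9 at 9.46% against 5.72%, both with difference intervals above 0. IGHV5 with IGHV2 was at 14.9% against 12.3%, a difference of 2.55 points whose interval (-0.861 to 6.43) held 0.

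Single genes were compared where at least 10 lambda cells were observed or expected, and a gene was called where the shares were at least 2-fold apart. Of 95 heavy V genes, 17 could be judged, and 6 of them were called, which is 35.3% of those judged. A gene rare in kappa cells can pass this filter only where it is high in lambda cells, as IGHV10-1 and IGHV10-3 did, so the numbers of higher and lower genes are not compared. Of the 11 genes with at least 10 lambda cells expected from the kappa share, 4 were called, IGHV8-8, IGHV9-3, IGHV1-26 and IGHV1-53. The higher genes of the 6 were IGHV10-1 (22 lambda cells, 5.20% against 0.966% of kappa cells), IGHV10-3 (14 cells, 3.31% against 1.08%), IGHV8-8 (27 cells, 6.38% against 2.78%) and IGHV9-3 (36 cells, 8.51% against 3.98%). Their folds were 5.39, 3.06, 2.29 and 2.14, where the median over the 17 genes was 1.14. The lower ones were IGHV1-26 (10 cells, 2.36% against 5.13%) and IGHV1-53 (5 cells, 1.18% against 2.55%). The lambda interval of IGHV1-26 (1.14 to 4.30) lay below its kappa share, but that of IGHV1-53 (0.385 to 2.74) held its kappa share. IGHV9-3, IGHV8-8 and IGHV10-1 were also the heavy V genes with most lambda cells, followed by IGHV1-82, IGHV6-3 and IGHV10-3 at 14 cells each. IGHV1-82, at 1.14-fold, and IGHV6-3, at 1.67-fold, stayed within the rule.

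All called genes lie in the heavy chain locus on chromosome 12 (RefSeq GRCm38.p6), with Ighv10-1 at 114479007 to 114479451 and Ighv10-3 at 114523441 to 114523887. Between them and the J segments lies Ighv9-3 at 114140692 to 114141122, and farther away lie Ighv1-26 at 114788372 to 114788665, Ighv1-53 at 115158445 to 115158835 and Ighv8-8 at 115294066 to 115294362. Read the other way, 36 of the 125 WT cells with an IGHV10 heavy chain were lambda cells, or 28.8% (21.1 to 37.6), against 8.86% of all WT cells with a heavy chain.

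**Figure D2:**
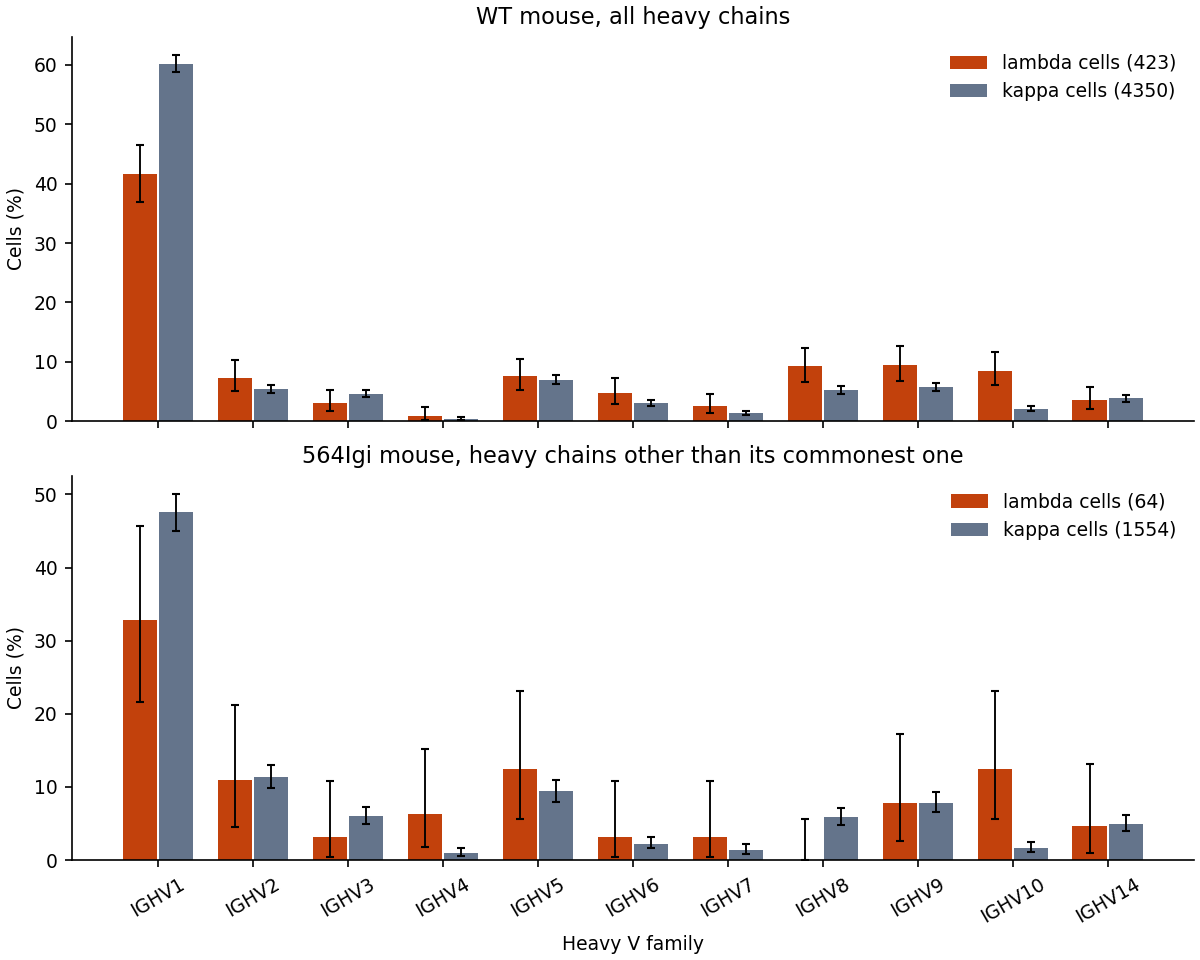
Share of cells (percent, bars with exact 95% intervals) by heavy V family in lambda and kappa cells, for all WT heavy chains and for 564Igi heavy chains other than the commonest one. IGHV10 is at 8.51% against 2.05% in WT and 12.5% against 1.67% in 564Igi, and IGHV1 is lower in lambda cells in both mice.

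IGHV10 lambda cells also differed from other lambda cells in their light chain. Of the 36 WT cells, 30 used IGLV2 or IGLV3, or 83.3% (67.2 to 93.6), against 134 of the 387 lambda cells with another heavy family, or 34.6% (29.9 to 39.6). IGLJ2 was used by 31 of the 36, or 86.1%, against 34.9%. IGHV10-1 was paired with IGLV2 in 13 cells, IGLV3 in 6 and IGLV1 in 3, and IGHV10-3 with IGLV2 in 9, IGLV3 in 2 and IGLV1 in 3. Put by light chain, IGHV10 made up 18.3% (12.7 to 25.1) of IGLV2 or IGLV3 cells, 2.32% (0.855 to 4.97) of IGLV1 cells and 2.05% of kappa cells. In this WT mouse, lambda cells with IGLV1 were therefore within counting error of kappa cells for this family. IGHV10 was at 8.56% in lambda cells without a productive kappa chain and 8.33% in those with one.

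IGHV9-3 was at 11.6% (7.12 to 17.5) of IGLV2 or IGLV3 cells, 6.56% (3.87 to 10.3) of IGLV1 cells and 3.98% of kappa cells. IGHV8-8 was at 5.49% (2.54 to 10.2), 6.95% (4.17 to 10.8) and 2.78%. For both genes the intervals of the 2 lambda groups overlapped.

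**Figure D3:**
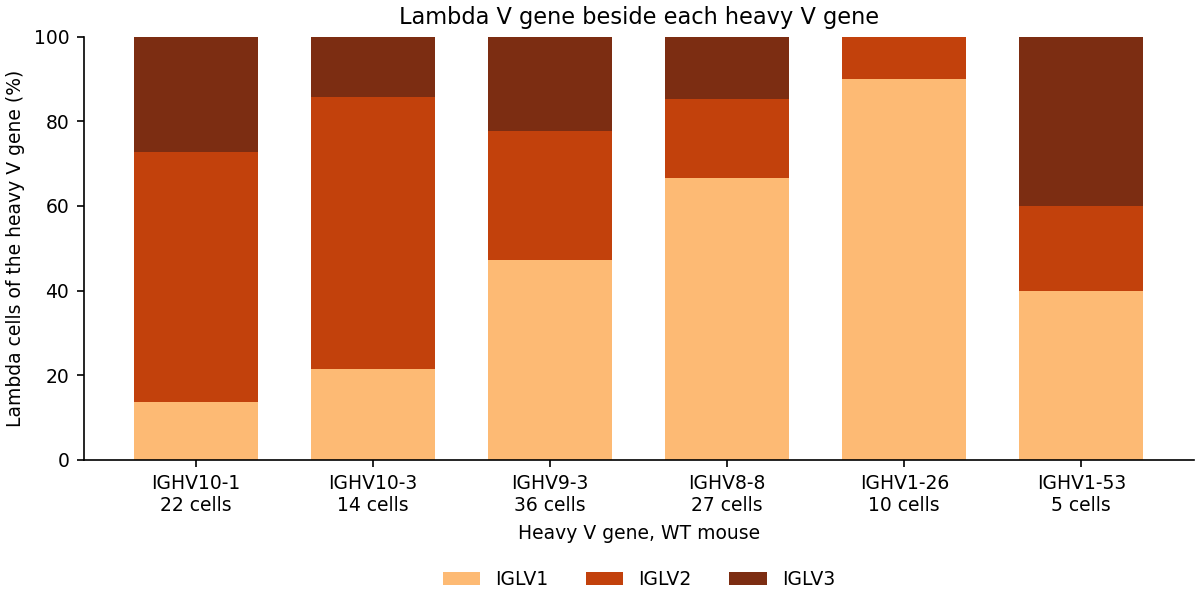
Lambda V gene (percent of lambda cells, stacked to 100) beside each of the 6 heavy V genes at least 2-fold apart between WT lambda and kappa cells, with the number of lambda cells under each name. IGLV2 and IGLV3 together make up 86.4% for IGHV10-1 and 78.6% for IGHV10-3, against 52.8% for IGHV9-3 and 33.3% for IGHV8-8.

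The heavy CDR3 sequences of IGHV10-1 lambda cells are shown because they tell whether a single clone carried the family. Capitals mark the bases after the first 9. The sequences were taken from cells whose first 9 bases are the commonest ones, the 3 with most heavy chain UMIs among them in WT and, in 564Igi, 1 that lacks the end shared with the commonest heavy chain of that mouse.
WT IGHV10-1 with IGLV3, 30 UMIs: tgtgtgagaCATGAGGACTTTGACTACTGG
WT IGHV10-1 with IGLV2, 29 UMIs: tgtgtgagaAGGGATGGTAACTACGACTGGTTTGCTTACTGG
WT IGHV10-1 with IGLV3, 24 UMIs: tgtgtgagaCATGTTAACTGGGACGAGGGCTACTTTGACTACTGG
564Igi IGHV10-1 with IGLV2, 20 UMIs: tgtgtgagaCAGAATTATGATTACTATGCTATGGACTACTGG

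All 22 WT IGHV10-1 lambda cells had different heavy CDR3 sequences, from 7 to 15 amino acids long, with IGHJ2, IGHJ3, IGHJ4 and IGHJ1 in 6, 6, 9 and 1 cells. The 14 IGHV10-3 cells also had 14 different sequences. The first 9 bases were the printed ones in 15 of the 22 WT IGHV10-1 cells and in 4 of 6 in 564Igi.

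In 564Igi no heavy V gene had enough lambda cells for the 2-fold rule, so families were compared among the 64 lambda and 1554 kappa cells whose heavy chain was not the mouse's commonest one. IGHV10 was used by 8 of the 64, or 12.5% (5.55 to 23.2), against 1.67% of kappa cells, a difference of 10.8 points (3.84 to 21.5). Against the 207 kappa cells with neither of the commonest chains it was 12.5% to 2.42%. Of these 8 cells, 6 had IGHV10-1 and 2 had IGHV10-3, and 4 used IGLV2 or IGLV3. The last share was 50% (15.7 to 84.3), against 30.4% (18.8 to 44.1) of the 56 lambda cells with another family. These intervals overlapped, unlike those in WT. IGHV1 was at 32.8% against 47.6%, a difference of -14.7 points (-26.2 to -1.62). IGHV10-1 led the single genes with 6 cells, followed by IGHV1-82 with 5 and IGHV1-81 and IGHV4-1 with 4 each. IGHV8 was found in 0 of 64 lambda cells against 5.86% of kappa cells, in the opposite direction to WT. IGHV9-3 was in 2, or 3.12% (0.381 to 10.8), an interval that held the 5.66% of kappa cells. Against the 207 kappa cells with neither commonest chain, the IGHV8 difference was -3.86 points, with an interval (-7.47 to 2.15) that held 0.

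Among heavy chain J genes in WT, IGHJ1 was at 18.0% of lambda and 17.0% of kappa cells, IGHJ2 at 29.8% and 31.9%, IGHJ3 at 24.8% and 23.2%, and IGHJ4 at 27.4% and 28.0%. Each difference interval held 0. Of the 5 commonest D genes, IGHD1-1 (35.2% and 35.7%), IGHD2-3 (10.2% and 10.4%), IGHD4-1 (9.93% and 8.90%) and IGHD2-5 (7.80% and 6.92%) did likewise. IGHD2-4 was at 7.09% against 11.8%, a difference of -4.72 points (-7.19 to -1.69). No D gene was named in 11.6% of lambda and 8.53% of kappa cells, a difference of 3.06 points (0.0371 to 6.59). D names are uncertain because the short D genes of the IGHD2 family resemble each other.

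The heavy CDR3 had a median of 14 amino acids in both classes in WT, with means of 13.6 ± 2.83 (SD, 423 cells) and 14.02 ± 2.66 (SD, 4350 cells). A net charge of 1 or more (arginines and lysines minus aspartates and glutamates) was found in 28.4% of lambda and 23.7% of kappa cells, a difference of 4.62 points (0.180 to 9.35). In 564Igi, outside the commonest heavy chain, it was 43.8% against 32.4%, with an interval that held 0 (-1.29 to 24.5). There the median length was 15 (13 to 18) in lambda and 17 (16 to 17) in kappa cells. It was also 15 (15 to 16) in the 207 kappa cells with neither commonest chain. IGHJ3 was at 26.6% of lambda against 12.9% of kappa cells. Compared with kappa cells that held neither commonest chain, and without the heavy chains that end like the commonest one, IGHJ3 was at 39.5% against 35.9%.

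Constant genes were read from the heavy contig, as IGHM, IGHD or a switched class. In WT, 341 lambda cells with a named constant gene were IGHM, 66 IGHD and 1 IGHA, and none of the 408 had an IgG or IGHE gene. The switched share was 0.245% (0.00621 to 1.36) in lambda and 0.614% in kappa cells, not separable at this depth. Among unswitched chains IGHD was at 16.2% in lambda and 22.3% in kappa cells, a difference of -6.05 points (-9.74 to -1.90). In 564Igi, 68 of 77 were IGHM, 8 IGHD and 1 IGHG2B. B-1 type heavy genes were rare. IGHV11-2 was in 0 of 423 WT lambda cells, where 3 would be 0.709%, and 0.391% of kappa cells, and IGHV12-3 was in 1.

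Only 3 heavy CDR3 sequences were shared by 2 WT lambda cells, and they are shown because all other primary heavy CDR3 sequences of the 423 cells were unique among lambda cells.
IGHV1-50 and IGHV1-7, with IGLV1-IGLJ1 and IGLV2-IGLJ2: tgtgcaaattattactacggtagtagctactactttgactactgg
IGHV1-72, both with IGLV1-IGLJ1: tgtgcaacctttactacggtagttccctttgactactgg
IGHV1-76, both with IGLV1-IGLJ3: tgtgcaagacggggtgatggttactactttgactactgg

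The first was joined to different heavy V, lambda V and lambda J genes in its 2 cells. Which of its lambda V and J genes went together, and with which heavy V gene, was not resolved, and the order of the names does not show it. The third joined a cell with 44 heavy chain UMIs to one with 11007, whose lambda chain had 13030 UMIs and which was the lone IGHA cell of the WT lambda set. UMIs of at least 1000 per cell, as antibody-secreting cells can show, were found in 4 WT lambda cells, 0.784%, and in 3 564Igi lambda cells, 3.41%. Kappa cells reached such counts too, up to 30930 UMIs in WT and 19853 in 564Igi, so these few cells are not read as a trait of lambda cells.

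Kappa contigs were also found beside the lambda chain. A productive kappa chain was held by 109 of 510 WT lambda cells, or 21.4% (17.9 to 25.2), while 14.2% (13.3 to 15.1) of kappa cells held a further productive kappa chain, a difference of 7.15 points (3.55 to 11.1). After thinning to 10 UMIs these were 15.8% and 13.9%. In 75 of the 109 cells the lambda chain had under 3 times the UMIs of the kappa chain, and where a 3-fold lead was required the share of lambda cells was 7.82%. By the rule, the primary light chain cannot have fewer UMIs than the other. The 63 kappa cells with a productive lambda chain had medians of 56 kappa and 31 lambda UMIs. In the 109 lambda cells the kappa chain had a median of 27 UMIs, from 2 to 93, and the lambda chain a median of 65. A second heavy chain, which a droplet with several cells can also give, was found in 25 of the 96 such cells with a heavy chain, or 26.0%, and in 2 of the 327 lambda cells without productive kappa, or 0.612%. Among cells with exactly 1 heavy chain, 17.9% (14.3 to 22.1) of lambda and 11.0% (10.1 to 12.1) of kappa cells held the kappa chain.

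Kappa contigs that were not called productive were held by 102 of 510 WT lambda cells, or 20% (16.6 to 23.7), and by 8.95% of kappa cells, a difference of 11.0 points (7.57 to 14.9). After thinning the shares were 15.6% and 7.91%. All 102 contigs were full length. In 5 the productive field was False and in 97 it was None, a value whose meaning the files do not state, so they are described as not called productive rather than as out of frame. The difference was 3.49 points when low-confidence contigs were let in and 0.803 points where the field had to be False. A kappa contig of either kind was held by 37.8% of WT lambda cells, against a further one in 22.2% of kappa cells. Both kinds were found with each lambda V gene, at 22.2%, 22.6% and 14.8% for productive and 22.2%, 15.04% and 19.7% for the others in IGLV1, IGLV2 and IGLV3 cells.

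The J gene of these kappa contigs differed from that of ordinary kappa chains. IGKJ5, the J segment farthest from the V genes, at 70723886 to 70723923 on chromosome 6 (RefSeq GRCm38.p6), was used by 24.9% of the primary chains of WT kappa cells. It was used by 50 of the 109 productive kappa chains held by lambda cells, or 45.9% (36.3 to 55.7), and by 51 of the 102 others, or 50.0% (39.9 to 60.1). The corresponding contigs in kappa cells were at 27.2% (24.2 to 30.4) and 24.5% (20.9 to 28.4). IGKJ1, the J segment nearest the V genes, at 70722562 to 70722599, was at 14.7% of each kind in lambda cells and 30.7% of primary kappa chains. IGKJ2 was at 23.9% and 19.6% against 30.5%, and IGKJ4 at 15.6% and 15.7% against 13.8%. Together IGKJ4 and IGKJ5 made up 61.5% and 65.7% of the contigs held by lambda cells and 38.8% of primary kappa chains. No IGKJ3 contig was found among those held by either class. Among cells with exactly 1 heavy chain, IGKJ5 was at 53.5% (41.3 to 65.5) and 52.6% (40.8 to 64.2) of the contigs in lambda cells and at 30.1% and 25.4% of those in kappa cells.

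**Figure D4:**
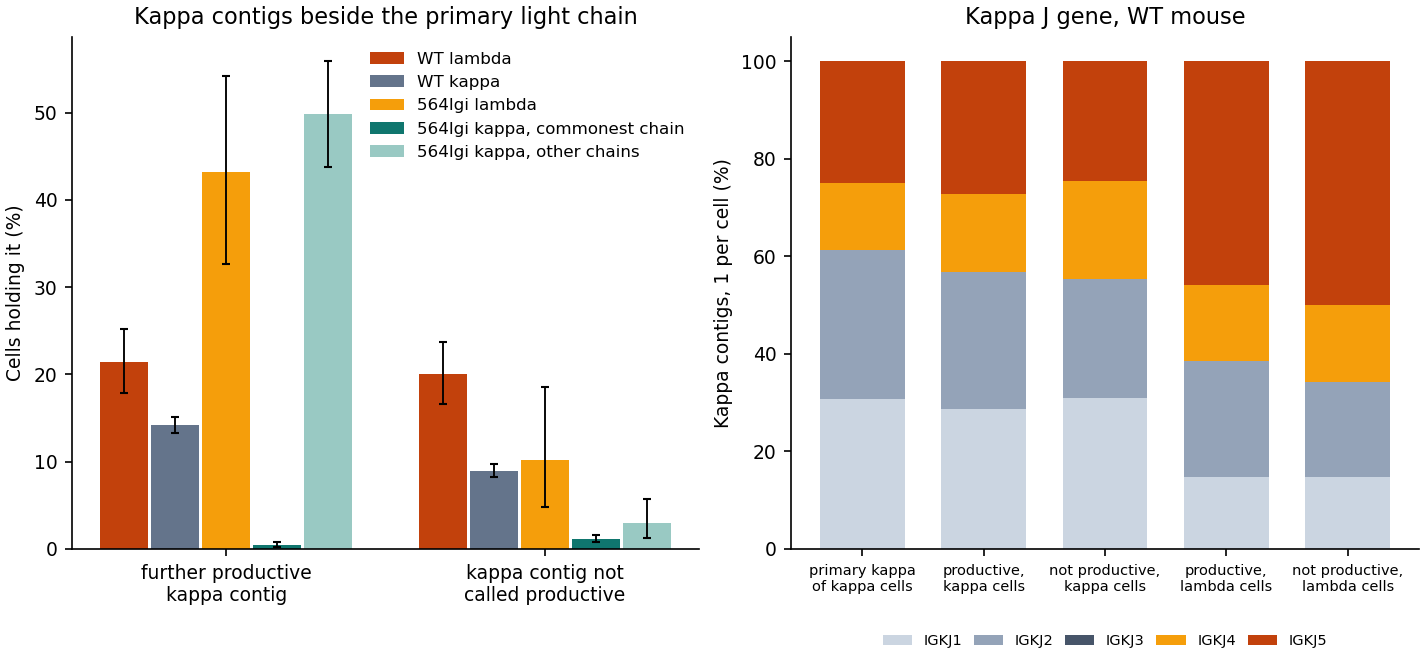
Left, share of cells (percent, bars with exact 95% intervals) that held a kappa contig beside the primary light chain, by class and mouse. Right, kappa J gene (percent of contigs, 1 per cell) in the WT mouse, where IGKJ5 is at 45.9% and 50.0% of the contigs held by lambda cells and between 24.5% and 27.2% in the other sets.

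By V gene, the productive kappa chains of WT lambda cells were most often IGKV8-24 (13 of 109), IGKV4-53 (6), IGKV1-135 (5), IGKV10-96 (5) and IGKV6-17 (5). IGKV8-24 was thus at 11.9% (6.51 to 19.5), against 4.18% (2.93 to 5.77) of the further chains of kappa cells. IGKV4-53 was at 5.50% (2.05 to 11.6) against 1.08% (0.493 to 2.03). The contigs not called productive were most often IGKV1-135 (12 of 102), IGKV2-137 (8), IGKV4-68 (6), IGKV8-19 (6) and IGKV10-95 (4). IGKV1-135 had a like share in kappa cells, 11.8% against 13.7%, and IGKV2-137 was at 7.84% (3.45 to 14.9) against 2.09% (1.05 to 3.70).

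In 564Igi most kappa cells carried 1 kappa chain. This candidate for the knocked-in light chain, IGKV4-59-IGKJ5, was the primary chain of 3288 of the 3561 kappa cells, and 273 used another. A productive kappa chain was held by 38 of the 88 lambda cells, or 43.2% (32.7 to 54.2). The candidate was held by 36 of the 38, at a median of 17.5 UMIs, from 3 to 49, and the median lambda to candidate UMI ratio was 2.91. The rule itself keeps this ratio from falling below 1. The 273 kappa cells with another primary chain held a further productive kappa chain in 49.8% (43.7 to 55.9), which was not separable from the lambda cells, and the 3288 candidate cells in 0.487%. The remaining 50 lambda cells showed no productive kappa chain.

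Kappa contigs not called productive were held by 9 of the 88 lambda cells in 564Igi, or 10.2% (4.78 to 18.5), by 2.93% (1.27 to 5.69) of the kappa cells with another chain and by 1.16% of the candidate cells. All 9 used IGKJ5 (6) or IGKJ4 (3), whereas 15 of the 46 such contigs in kappa cells did. All 9 had None in the productive field, and where it had to be False the difference from all kappa cells reversed to -0.112 points.

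The commonest heavy chain of 564Igi, the candidate for the knocked-in one, joined IGHV1-53, IGHD3-1 and IGHJ4. It was the primary heavy chain of 17 of the 81 lambda cells with a heavy chain, or 21.0% (12.7 to 31.5), of 12.3% (8.39 to 17.2) of kappa cells without the candidate light chain and of 55.2% (53.4 to 57.0) of those with it. Another 21 of the 81 had a different heavy chain whose CDR3 shared its final 30 bases with the candidate, allowing 2 mismatches. These ends are shown in capitals, with the 4 that had most heavy chain UMIs.
candidate heavy chain CDR3: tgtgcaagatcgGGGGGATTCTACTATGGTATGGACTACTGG
IGHV10-1 with IGLV1-IGLJ1: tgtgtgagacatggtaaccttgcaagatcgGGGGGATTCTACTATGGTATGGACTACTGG
IGHV1-53 with IGLV2-IGLJ2: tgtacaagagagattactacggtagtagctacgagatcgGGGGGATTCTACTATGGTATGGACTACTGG
IGHV5-6 with IGLV1-IGLJ1: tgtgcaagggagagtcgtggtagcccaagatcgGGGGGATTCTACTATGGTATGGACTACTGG
IGHV5-9-1 with IGLV1-IGLJ1: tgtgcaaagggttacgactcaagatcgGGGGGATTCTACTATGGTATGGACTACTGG

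The 21 cells had 21 different heavy CDR3 sequences with 15 V genes and were 21 amino acids long at the median, whereas the median was 13 in the 43 lambda cells with neither the candidate nor its end. No WT heavy chain carried this end. As a share of heavy chains other than the candidate, it was 32.8% (21.6 to 45.7) in lambda cells, 31.4% (25.1 to 38.2) in kappa cells without the candidate light chain and 47.5% (44.8 to 50.2) in those with it. Without these chains IGHV10 was still at 13.95% of lambda and 2.59% of kappa cells.

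The lambda chains beside the candidate heavy chain were few in kind. IGLJ3 was used by 12 of the 17 cells, or 70.6% (44.0 to 89.7), against 3 of the 64 lambda cells with another heavy chain, or 4.69% (0.977 to 13.1), and 7.25% (5.16 to 9.86) of all WT lambda cells. This contrast was noticed after the values had been seen. The sequences of the 2 commonest are shown because both are IGLV1-IGLJ3 joints and differ at 1 capital.
in 7 of the 17 cells: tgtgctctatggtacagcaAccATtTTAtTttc
in 4 of the 17 cells: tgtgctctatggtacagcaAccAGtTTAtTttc

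The first of these was also in 24 WT lambda cells and the second in 5. A further 3 cells had the commonest IGLV1-IGLJ1 CDR3, and 3 cells had 1 sequence each. The heavy chain of the 17 cells had a median of 15 UMIs, from 8 to 1552, and the highest cell, with IGLV3-IGLJ2 and 3501 lambda UMIs, was not an IGLJ3 cell. The candidate light chain was held by 4 of these 17 cells and by 30 of the 64 others. Heavy contigs were also found in 14.1% of the T cell barcodes of 564Igi, where their median was 3 UMIs. Whether such contigs account for any of the 17 heavy chains was not tested. Counting cells with the same V, J and CDR3 of both chains once, the 17 cells were 6 clonotypes, of which IGLJ3 made up 50%, and the candidate made up 8.57% of lambda clonotypes. The 17 cells share the heavy chain by definition, and their lambda CDR3 sequences also occurred in WT lambda cells. This count therefore cannot tell relatives from cells that made the same lambda joint separately.

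Light chain mRNA counts were higher in lambda than in kappa cells. The median was 54 UMIs (50 to 58) in WT lambda cells, with its quartiles at 35 and 82, and 41 (40 to 42) in kappa cells. Heavy chain UMIs were also higher, at 18 (16 to 19) against 14 (14 to 15), and the light to heavy ratio was 3.22 (2.96 to 3.5) against 3.09 (3 to 3.18). IGLV2 cells had a median of 62 (55 to 69) light chain UMIs, IGLV1 cells 52 (49 to 57) and IGLV3 cells 43 (37 to 54). Their light to heavy ratios were 3.79, 3.33 and 2.27, with the interval of IGLV3 (1.80 to 2.57) below those of the other V genes. Capture primers and contig length differ between chains, and their part in these ratios was not tested.

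In 564Igi the lambda chain had a median of 49 UMIs (41 to 60) per lambda cell. Kappa chains other than the candidate had 43 (39 to 49), and the candidate light chain 17 (17 to 18). The light to heavy ratio was 2.88 (2.5 to 3.38) in lambda cells, 2.75 (2.48 to 3.13) in kappa cells with another chain and 1 (1 to 1.03) in candidate cells. The intervals of lambda cells and of non-candidate kappa cells overlapped in both measures, and those of the candidate cells lay below them.

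**Figure D5:**
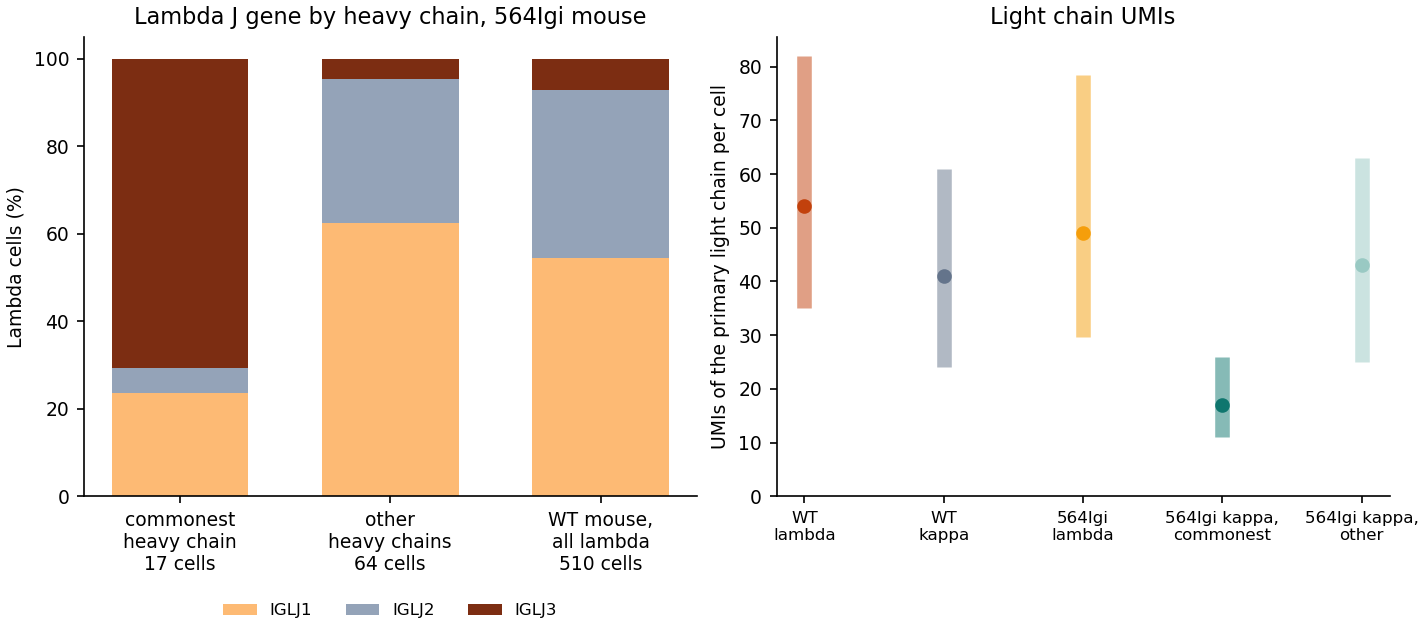
Left, lambda J gene (percent of lambda cells, stacked to 100) by heavy chain in the 564Igi mouse, beside all WT lambda cells. IGLJ3 is at 70.6% beside the commonest heavy chain and 4.69% beside others. Right, UMIs of the primary light chain per cell, with points at the median and bars from the lower to the upper quartile, where the candidate cells of 564Igi have a median of 17 and lambda cells 49.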

How the data were processed

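The 4 deposited contig tables comprise a B cell and a T cell V(D)J table for each of 2 mice. Per the file headers, they hold raw read and UMI counts per assembled contig, not normalized by the authors, with a cell call, a confidence flag, gene names and CDR3 sequences. Cell Ranger 3.0.2 and mm10 appear in the submitters' processing notes with no role given. Neither the cell call nor the flag is explained in the sources used here.

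Barcodes that both tables of a mouse called cells (345 in WT, 373 in 564Igi) could be doublets and were dropped, and no doublet caller was applied. Of the called B cell barcodes, 38 occurred in both mice, and 0 were lambda cells in both. Productive contigs needed the flag and 2 UMIs, and a kappa contig not called productive needed these and a named V and J gene. Thinning drew 10 UMIs per cell and omitted shallower cells. Beside a count of 0 stands the share equal to 3 counts.

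Named heavy V genes were the 5 with most lambda cells in each mouse and, in WT, those at least 2-fold apart, up to 5 a side, with the 5 leading genes of the D and held kappa sets. The fold rule was tested on simulated data in which genes were raised, none lowered. Members, lists and rules were chosen with earlier results of these data known. The candidate chains are the heavy and kappa CDR3 sequences that were primary in most 564Igi cells, and the 30-base end was taken over from an earlier analysis. The alternatives tried are given in the closing section. Software was SciPy 1.17.1, NumPy 2.4.6, pandas 2.3.3 and matplotlib 3.10.9 under Python 3.11.15.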

Additional observations from a re-analysis of the deposited data

Results flagged for a closer look

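For 5 measures the difference between lambda and kappa cells had opposite signs in the mice, and whether the mice differ was not tested, since each is a single animal. IGHD among unswitched heavy chains was -6.05 points in WT and 1.39 (-6.21 to 12.8) in 564Igi. IGHV8 was 3.93 points (1.26 to 7.17) in WT and -5.86 (-7.14 to -0.145) in 564Igi. Against the 564Igi kappa cells with neither commonest chain it was -3.86 (-7.47 to 2.15), an interval that held 0. IGHV9 was 3.73 and -0.0382 points, IGHV2 1.90 and -0.388, and IGHJ1 1.001 and -2.89. The 564Igi values are for heavy chains other than its commonest one.

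Barcodes called only as T cells held B cell receptor contigs above the share that 3 counts would make. Kappa contigs were found in 1.35% (0.981 to 1.81) of them in WT and 0.831% (0.589 to 1.14) in 564Igi. Heavy contigs were found in 14.1% (13.2 to 15.2) of them in 564Igi and 0.0613% in WT.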

How the results depend on the processing

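No paired analysis was possible because each genotype was 1 mouse. Heavy chain recovery could not be computed for distinct clonotypes or for cells with exactly 1 heavy chain, nor light chain UMIs after thinning. Exactly 1 heavy chain, the recount of IGLV1-IGLJ2 chains and the filter on expected lambda cells were chosen after seeing the data. Main values stayed within their counting intervals except as follows, and the cause was not tested.

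The lambda share was 7.30% in WT and 1.45% in 564Igi with exactly 1 productive light chain, 6.94% and 1.82% with a 3-fold UMI lead over the other class, and 8.88% and 4.32% over distinct clonotypes. It was 8.95% in WT with exactly 1 heavy chain. The productive kappa share of lambda cells was 7.82% in WT and 24.2% in 564Igi with the 3-fold lead, 15.8% in WT after thinning, and 0 by construction with 1 light chain. With the 3-fold lead IGKJ5 was at 100% of the productive kappa chains of 564Igi lambda cells. The candidate heavy chain share of 564Igi lambda cells was 8.57% over distinct clonotypes, where cells with that heavy chain and the same lambda chain count once, related or not. Heavy chain recovery in 564Igi differed by -9.29 points after thinning. The difference in kappa contigs not called productive was 3.49 points in WT without the confidence flag. Where productive had to be False it was 0.803 points in WT and reversed to -0.112 in 564Igi. IGKJ5 was then at 83.3% in WT, but over few contigs, since only 5 of the 102 in the main count had False. At 1.5-fold 11 of the same 17 judged heavy V genes were called. With 5 lambda cells as the minimum 12 were called, but more genes could then be judged. That count is therefore not comparable with the 6 called of 17. Lambda contigs of 1 UMI or more were in 0.131% of the T cell barcodes of 564Igi.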
